A study of Mus musculus with 6 samples.

Results

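Genes for cell adhesion and axon guidance were compared between aggregated primary mouse Sertoli cells and aggregated cells of the MSC-1 line. The members come from the authors' deposited table of probe sets with a fold of 4 or above, and were taken where the gene title holds a family name: integrin, cadherin, adhesion molecule, contactin, claudin, catenin, semaphorin, netrin, slit homolog, roundabout, plexin, ephrin, Eph receptor, neurexin or neuroligin. Cdh11, Cdh19, Icam1, Vcam1, Epcam, Jam2 and Alcam also matched and were left out by name. The rule found 51 of the 3198 probe sets of the table. They stand for 28 of its 2291 genes with a symbol of their own, plus 1 probe set shared by 14 protocadherin alpha genes. For 3 of the 28 genes, Adam18, Adam1b and Adamts9, the title matched only because "disintegrin" holds the word integrin, so 25 adhesion and guidance genes remain.

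Primary Sertoli cells came from mice of strain C57BL/6 x 129, with 3 samples, and the labels give the donors' age as 10 to 20 days in one place and as 19 to 20 days in another. MSC-1, also with 3 samples, is a Sertoli-derived line from a testis tumour of a mouse transgenic for the SV40 large T antigen, and the labels give no strain or age for it. Both were left to aggregate for 48 h with 10% serum and otherwise untreated, and total RNA was hybridised to 1 Affymetrix array per sample. Nothing in the labels says that the 3 samples of a group were separate animals or cultures, so any p-value measures only the spread between these samples, which may be technical.

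Cells of the nervous system and of epithelia hold each other through families of surface proteins. Cadherins bind their like on the next cell and are tied to actin by catenins, integrins bind the extracellular matrix, and proteins of the immunoglobulin type such as L1cam join axons and glia. Guidance proteins work as ligand and receptor pairs. Semaphorins act on plexins, with neuropilins as co-receptors for the secreted class 3 forms, ephrins act on Eph receptors, slits on roundabouts and netrins on Dcc and Unc5 receptors. In the seminiferous tubule, Sertoli cells use cadherins, claudins and integrins to hold germ cells and to close the barrier between the tubule's compartments.

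Values are array signals in arbitrary units, scaled by the authors to a trimmed mean of 125 on every array. Of all 45037 probe sets, 38.2% to 40.5% had a signal under 16 on the primary arrays and 43.3% to 44.3% on the MSC-1 arrays, so a signal of a few units is near the bottom of the scale and gives no reliable level. No detection call was used here. Differences are primary minus MSC-1 cells on the log2(signal + 16) scale with their standard error (SE) from the limma fit, which understates the change of dim genes. Over all probe sets, arrays of 1 group correlated at 0.965 or more (log2 scale), and no pair across the groups above 0.828. Each gene is given by its listed probe set with the highest mean over the 6 arrays.

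The labelled cell types were checked against markers. Of 16 Sertoli cell genes, 5 were in the table, and their summed signal was 6939 to 7469 in primary cells, against 470 to 663 in MSC-1 cells. The Sertoli cystatin Cst12 had 661 to 2318 units in primary cells and 7.32 to 23.9 in MSC-1 cells. Of 15 Schwann cell and neural crest genes, 10 were in the table, 9 of them higher in MSC-1 cells and Egr2 higher in primary cells, and their sum was 305 to 555 in primary cells, against 7628 to 11297 in MSC-1 cells. Sox10, the transcription factor that specifies Schwann cells and melanocytes, had 6.89 to 20.8 units in primary cells and 1490 to 1652 in MSC-1 cells. Germ cell markers (7 of 12 in the table) summed to 4531 to 6389 in primary cells and 33.6 to 60.0 in MSC-1 cells. Peritubular and smooth muscle markers (4 of 7) summed to 1555 to 2885 in primary cells and 95.6 to 124 in MSC-1 cells. For macrophages (3 of 8) the sum was 578 to 997 in primary cells and 35.0 to 74.3 in MSC-1 cells, and for Leydig cells (Star alone, of 6) 459 to 574 in primary cells and 17.3 to 21.8 in MSC-1 cells. Of 8 endothelial markers 0 were in the table. The part of these cells in the differences below was not tested, and in RNA of whole samples fewer cells of a type and less RNA per cell cannot be told apart.

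Most adhesion and guidance genes were higher in MSC-1 cells. Of the 25 genes, 8 were higher in primary cells and the other 17 were lower. The share higher in primary cells was 32.0%, against 62.1% for all genes of the table, of which the remaining 37.9% were higher in MSC-1 cells. The median difference was -2.11 for the 25 genes and 2.14 for all genes of the table. Since the table is cut at 4-fold, these medians mainly restate which side holds more genes. Among genes higher in primary cells the median was 2.63 for members and 2.92 for the table. Among genes lower in primary cells it was -2.52 for members and -2.09 for the table. Of the 19 genes of neural families, 5 were higher and 14 lower in primary cells. The other 6 genes were divided 3 to 3. Signals of the groups overlapped for 0 of the 51 probe sets, and all 51 passed an adjusted p of 0.05 in limma, but the table was chosen on this same difference, so nothing is read from these counts. In the whole table, 3197 of its 3198 probe sets passed. Over the whole array 40.9% of probe sets passed, 19.3% higher in primary cells and 21.6% lower, and the groups did not overlap for 51.2%.

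**Figure D1:**
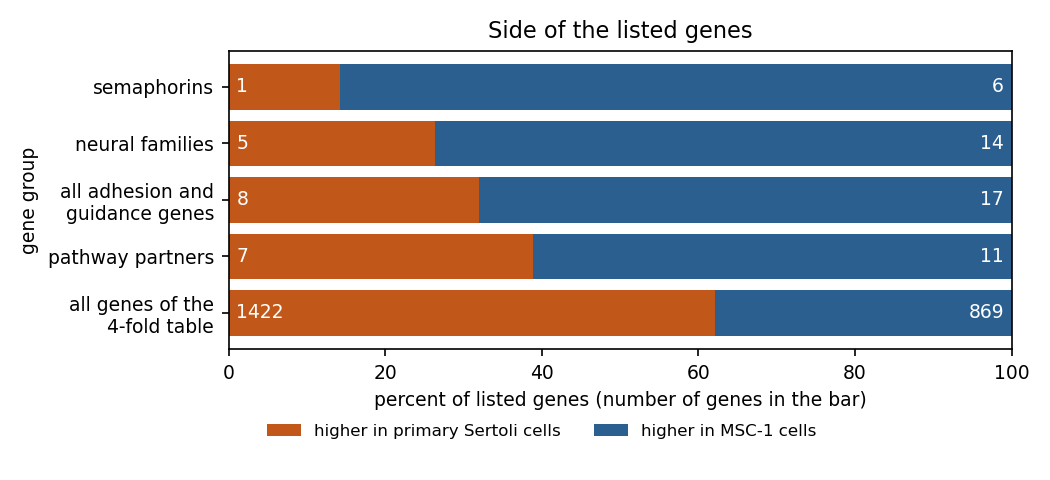
Share of listed genes higher in primary Sertoli cells (orange, left) or in MSC-1 cells (blue, right), in percent, with the number of genes in each bar. The adhesion and guidance genes lie mostly on the MSC-1 side (8 against 17), whereas the whole table lies mostly on the primary side (1422 against 869).

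No gene of an epithelial family was a member, which is in part set by the rule. Epcam, the epithelial cell adhesion molecule, and Jam2, a junctional adhesion molecule related to F11r, are in the table and were left out by name. In the authors' deposited table the fold of Epcam is positive, higher in primary cells, and the folds of Jam2 are negative. The counts of list genes below have no share of all genes beside them, since unlisted probe sets were not named here. By probe sets, the table holds 3198 of the 45037 on the array. Neither count is thus read as more or fewer than for other genes. Of 181 neural genes in lists written for these families, 20 were in the table by symbol, including Sema4f, whose title lacks the word semaphorin. Of 42 epithelial genes, namely claudins, Cdh1, Cdh3 and other epithelial cadherins, integrins such as Itga6 and Itgb4, and F11r and other molecules, 0 were in the table under a symbol of their own, but these lists do not hold Epcam or Jam2. A gene that is not in the table may differ by less than 4-fold or have missed a criterion that is not stated, since only 2964 of 7112 probe sets (41.7%) whose mean signals differ by 4-fold or more are in it. Which unlisted probe sets belong to these families was not analysed here, so the absence of claudins and E-cadherin from the table is no measurement of their levels. Of the members, only Itgae carries the word epithelial in its title.

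**Figure D2:**
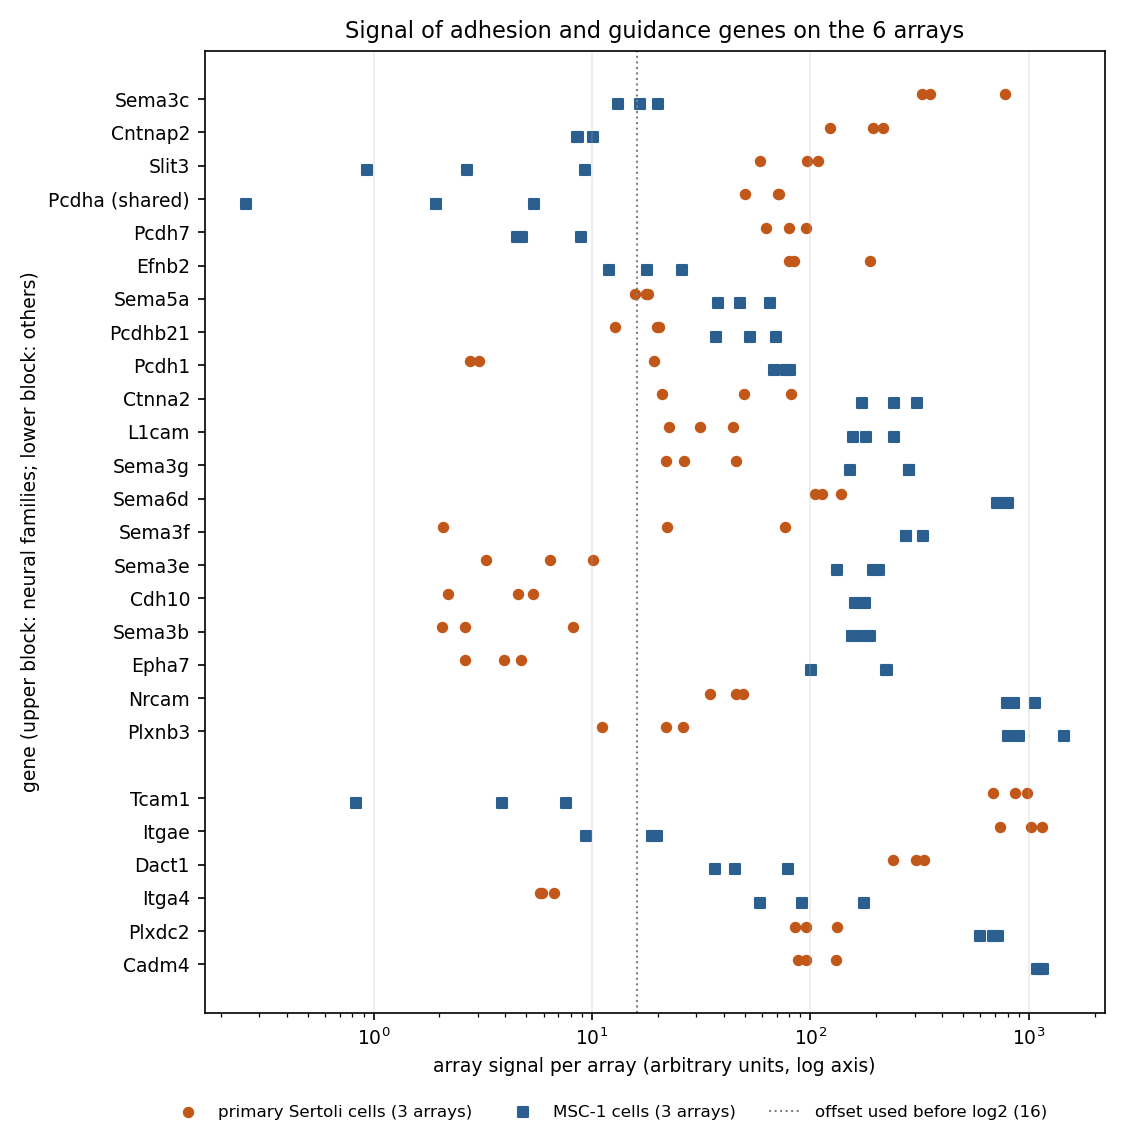
Signal of each adhesion and guidance gene on every array (log axis, arbitrary units), with primary Sertoli cells as circles above and MSC-1 cells as squares below in each row. The 2 groups do not overlap in any row, and the low side of many rows lies under the offset of 16 marked by the dotted line.

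Semaphorins were the most frequent family, with 7 genes by title, of which 6 were higher in MSC-1 cells. Among the secreted class 3 forms 4 of 5 were on that side. Sema3b, a secreted ligand of neuropilins, had signals of 2.06, 8.22 and 2.62 in primary cells, against 174, 155 and 188 in MSC-1 cells, a difference of -3.22 (SE 0.18). Sema3e, which can act on plexin D1 without a neuropilin, had 10.1, 3.27 and 6.43 in primary cells and 132, 194 and 205 in MSC-1 cells, a difference of -3.08 (SE 0.21). The other 3 listed Sema3e probe sets lay on the same side, and its 4 probe sets ranged in size from 1.8 to 3.08. Primary cells were thus near the bottom of the scale for both genes.

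Sema3f was uneven among the primary samples. Its signals were 76.2, 2.08 and 22.1 in primary cells, against 328, 275 and 275 in MSC-1 cells, a difference of -2.95 with the largest SE of all members, 0.49. Primary array 1 stood well above the other primary arrays and still below every MSC-1 array, and without it the difference was -3.55. Sema3g had 26.3, 45.5 and 21.8 in primary cells and 284, 151 and 282 in MSC-1 cells, with a difference of -2.42 (SE 0.27). Here MSC-1 array 2 was the low one of its group.

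The transmembrane semaphorins were on the MSC-1 side too. Sema6d, a ligand of class A plexins, was bright in both groups, with 138, 105 and 113 in primary cells and 711, 805 and 743 in MSC-1 cells, a difference of -2.52 (SE 0.12). Sema5a, which carries thrombospondin repeats and binds plexin B3, was dim and close to the table's threshold, with 18.1, 17.7 and 15.7 in primary cells, against 37.9, 65.4 and 47.6 in MSC-1 cells. Its difference was -0.98 (SE 0.2) on the scale used here, although the fold in the authors' deposited table is 4.07. Without the offset, the log2 ratio of its mean signals was -1.55, also under 4-fold. Of the 51 probe sets of members, 2 were under 4-fold in mean signal, those of Sema5a and Pcdhb21. Sema4f, a transmembrane semaphorin outside the rule, had 15.1, 13.3 and 17.8 in primary cells, against 379, 864 and 510 in MSC-1 cells (-4.18, SE 0.27).

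Sema3c was the exception among the semaphorins. This secreted ligand, known for its role in the outflow tract of the heart, had 775, 323 and 354 in primary cells, against 13.2, 20.1 and 16.6 in MSC-1 cells, a difference of 3.83 (SE 0.3). Primary array 1 was 2.29 times the mean of the other primary arrays, and the lowest primary array was still 16.1 times the highest MSC-1 array. A dimmer Sema3c probe set differed by 1.86 in the same direction, with 151, 54.7 and 75.3 in primary cells and 11.4, 9.34 and 16.6 in MSC-1 cells. Both probe sets were highest on primary array 1.

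Plxnb3, the gene of plexin B3, had the largest difference on the MSC-1 side on the scale used here. As a receptor it binds Sema5a. Its signals were 21.7, 26.1 and 11.1 in primary cells, against 799, 1446 and 899 in MSC-1 cells, a difference of -4.88 (SE 0.25), and the lowest MSC-1 array was 30.6 times the highest primary array. A second listed probe set gave 11.1, 14.1 and 6.03 in primary cells and 531, 804 and 481 in MSC-1 cells, a difference of -4.53. MSC-1 array 2 was the highest for both. The folds of these probe sets in the authors' deposited table are 10.1 and 26.0 in size, against 31.2 for Nrcam. Plxdc2, a transmembrane protein with a plexin-like domain that is not a plexin, had 132, 95.1 and 85.4 in primary cells and 598, 721 and 686 in MSC-1 cells (-2.52, SE 0.16).

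Among ephrins and their receptors the listed ligand and the listed receptor were on opposite sides. Epha7, a receptor tyrosine kinase for ephrin-A ligands, had 4.71, 2.61 and 3.94 in primary cells, against 101, 225 and 221 in MSC-1 cells, a difference of -3.26 (SE 0.28). Efnb2, a transmembrane ligand chiefly of EphB receptors, had 188, 80.1 and 83.9 in primary cells and 11.9, 17.9 and 25.8 in MSC-1 cells, a difference of 1.88 (SE 0.31). Efnb2 was thus uneven among primary samples, with array 1 at 2.29 times the mean of the others, and without that array the difference was 1.53. Slit3, a secreted ligand of roundabout receptors, had 108, 96.6 and 58.8 in primary cells, against 2.67, 9.27 and 0.930 in MSC-1 cells (2.34, SE 0.25). Of 6 netrin genes 0 were in the table.

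**Figure D3:**
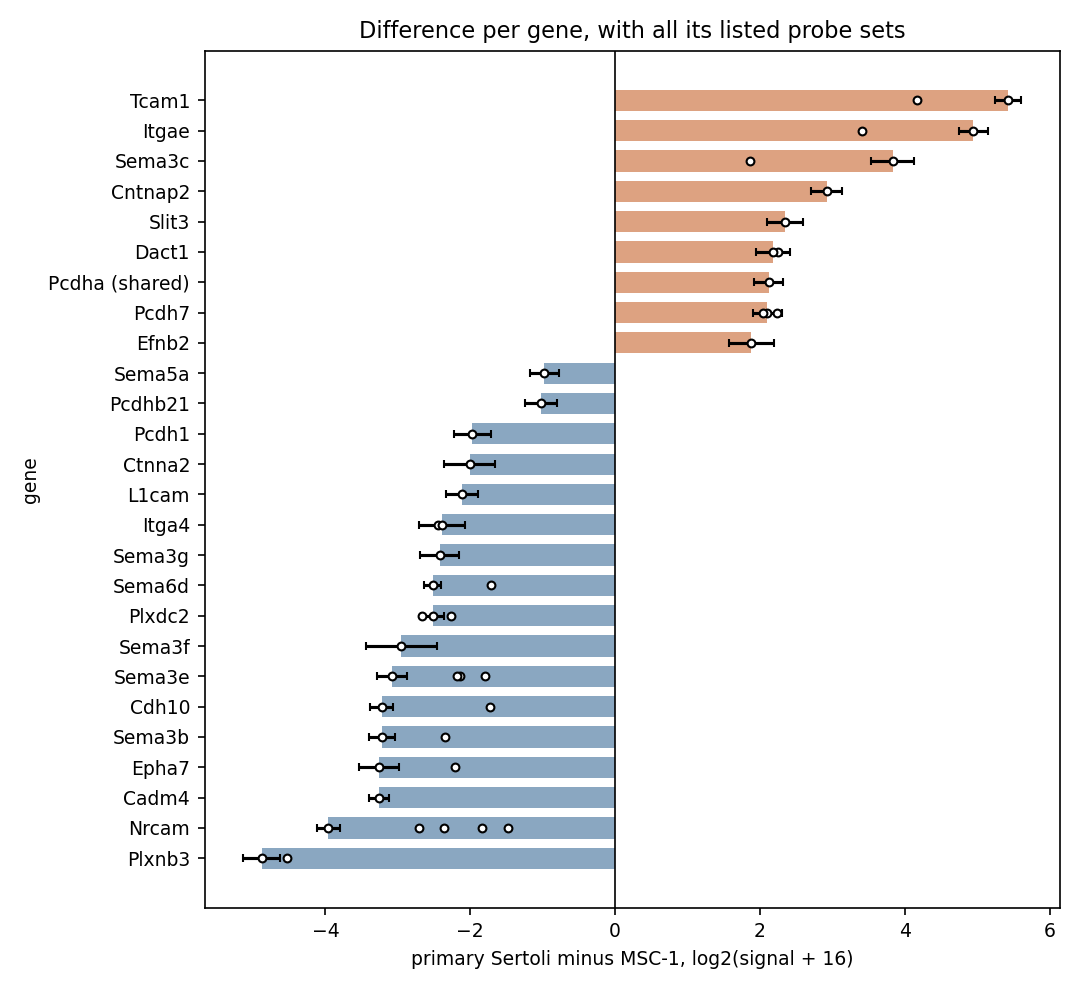
Difference between primary Sertoli and MSC-1 cells on the log2(signal + 16) scale, with bars for the probe set that stands for a gene, whiskers for its standard error and open circles for every listed probe set of the gene. Bars to the right are higher in primary cells. All probe sets of a gene lie on the same side, from 5.42 for Tcam1 to -4.88 for Plxnb3.

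Both listed adhesion molecules of the L1 type, Nrcam and L1cam, were higher in MSC-1 cells. Nrcam, which gathers sodium channels at the nodes of myelinated axons, had 34.5, 49.1 and 45.5 in primary cells, against 854, 1071 and 793 in MSC-1 cells, a difference of -3.96 (SE 0.16). All 5 listed Nrcam probe sets lay on this side, with sizes from 1.48 to 3.96, so the gene's direction does not rest on 1 probe set whereas its size does. L1cam, which guides and bundles axons, had 44.2, 22.6 and 31.1 in primary cells and 180, 241 and 157 in MSC-1 cells, a difference of -2.11 (SE 0.22). Cadm4, by which Schwann cells hold on to axons, had 131, 95.2 and 87.7 in primary cells and 1085, 1161 and 1126 in MSC-1 cells (-3.26, SE 0.14). Its MSC-1 arrays were among the most even of all members, within a coefficient of variation of 3.38%.

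Cntnap2, which holds potassium channels beside the nodes of myelinated axons, went the other way. It had 123, 215 and 194 in primary cells, against 10.1, 8.51 and 8.59 in MSC-1 cells, a difference of 2.92 (SE 0.21). Every primary array was well above every MSC-1 array, and the MSC-1 signals were near the bottom of the scale. No contactin was in the table, and neither was a neurexin or neuroligin.

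The listed classical cadherin and catenin were higher in MSC-1 cells, while the protocadherins given below were divided. Cdh10, a type II cadherin of the brain, had 5.36, 4.60 and 2.20 in primary cells, against 160, 175 and 178 in MSC-1 cells, a difference of -3.22 (SE 0.16), and its second listed probe set differed by -1.73. Ctnna2, the alpha catenin of neurons, had 20.8, 81.6 and 49.8 in primary cells and 172, 306 and 241 in MSC-1 cells (-2.01, SE 0.35). Its nearest arrays were 2.11 times apart, so the groups were separate by a narrow gap. Clstn1, a calsyntenin of the cadherin superfamily outside the rule, had 195, 107 and 137 in primary cells and 850, 687 and 711 in MSC-1 cells (-2.27, SE 0.19).

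Of the protocadherins, cadherin-like proteins that mark cell surfaces in the nervous system, Pcdh7 was higher in primary cells. It had 95.5, 80.0 and 62.5 in primary cells, against 4.55, 4.76 and 8.93 in MSC-1 cells, a difference of 2.1 (SE 0.2), and its 3 listed probe sets differed by 2.04 to 2.24. The probe set shared by the protocadherin alpha genes was on the same side, with 50.1, 71.1 and 72.1 in primary cells and 5.40, 0.259 and 1.92 in MSC-1 cells. Which of the 14 genes gave this signal cannot be told apart. Pcdh1 had 19.2, 3.03 and 2.75 in primary cells and 77.6, 68.4 and 80.5 in MSC-1 cells (-1.97, SE 0.26). Pcdhb21 was the member with the nearest groups, with 20.3, 19.8 and 12.8 in primary cells and 36.9, 69.2 and 52.7 in MSC-1 cells (-1.02, SE 0.22). Its lowest MSC-1 array was only 1.82 times its highest primary array. The log2 ratio of its mean signals was -1.59, under 4-fold, although its fold in the authors' deposited table is 4.70 in size.

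The 2 integrin genes were on opposite sides. Itgae, the subunit that lets lymphocytes in an epithelium bind E-cadherin, had 737, 1027 and 1152 in primary cells, against 19.9, 18.9 and 9.34 in MSC-1 cells, a difference of 4.94 (SE 0.2). Its second listed probe set gave 278, 393 and 516 in primary cells and 23.2, 22.1 and 19.4 in MSC-1 cells. Itga4, the subunit that binds Vcam1 and fibronectin, had 5.90, 6.66 and 5.75 in primary cells and 58.5, 176 and 91.7 in MSC-1 cells, a difference of -2.39 (SE 0.32). MSC-1 array 2 was 2.34 times the mean of the others for Itga4, and without it the difference was -2.02.

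The remaining title matches were higher in primary cells. Tcam1, a testis adhesion molecule made by spermatocytes in the mouse, had the largest difference of all members, with 687, 867 and 982 in primary cells, against 3.85, 7.61 and 0.832 in MSC-1 cells (5.42, SE 0.18). Dact1, an intracellular regulator of Wnt signalling whose title names it an antagonist of beta-catenin, had 240, 332 and 305 in primary cells and 44.9, 79.0 and 36.6 in MSC-1 cells (2.18, SE 0.23). The 3 disintegrin proteases lay on the same side, with differences of 4.36 for Adam1b, 4.16 for Adam18 and 2.35 for Adamts9. Adam1b and Adam18 are genes of germ cells in the mouse, and Adamts9 cuts proteoglycans of the matrix.

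Variation within a group followed marker lists for some members, which were picked after their values were seen. On primary arrays 1, 2 and 3 the summed peritubular markers were 2885, 1555 and 1591, highest on the array where Sema3c and Efnb2 were highest. The Schwann cell and crest markers, at 555, 305 and 329, were highest on that array too. The summed germ cell markers were 4531, 6389 and 6368, lowest on the array where Tcam1 and Itgae were lowest. Of these markers, Acrv1 (94.5, 45.6 and 72.5) was highest on that array, and every other listed one was lowest there. The sum of the 3 macrophage and leukocyte markers, at 578, 708 and 997, was also lowest there, in the array order of Itgae. Fcgr3 (339, 389 and 671) and Mpeg1 (157, 244 and 255) ran in that order, whereas Lcp1 (82.3, 75.4 and 70.9) ran the opposite way. Without primary array 1 the difference was 3.44 for Sema3c, 5.56 for Tcam1 and 5.12 for Itgae, so each kept its direction. On MSC-1 arrays 1, 2 and 3 the Schwann cell and crest markers summed to 7927, 11297 and 7628, highest on array 2. Much of that rise was Mbp, with 2079, 4692 and 2190, while Sox10, with 1569, 1652 and 1490, rose little. S100b and Egr2 were not highest on array 2. Array 2 was the highest MSC-1 array for 11 of the 17 members on that side, against 44.5% of all genes of the table that were higher in MSC-1 cells. Without it the difference for Plxnb3 was -4.62. With 3 arrays in a group these patterns are a description, and the part of other cells in them was not tested.

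**Figure D4:**
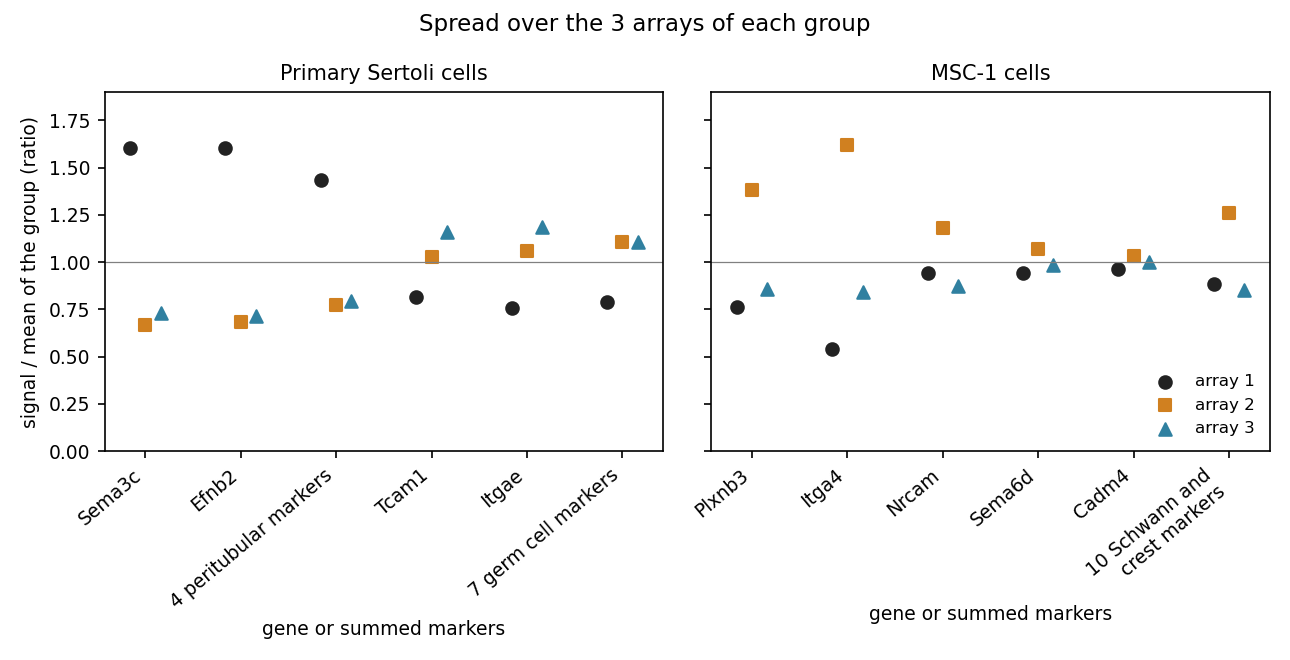
Signal on each array divided by the mean of its group, for genes and for summed markers, in primary Sertoli cells (left) and MSC-1 cells (right). Primary array 1 is high for Sema3c, Efnb2 and the peritubular markers and low for Tcam1, Itgae and the germ cell markers, and MSC-1 array 2 is high for Plxnb3, Itga4 and the Schwann cell and crest markers.

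Some members are near each other in the genome, by the gene order of the RefSeq table of GRCm38.p6. Sema3b and Sema3f lie on chromosome 9 with 3 protein-coding genes between them, and both were higher in MSC-1 cells. Plxnb3 and L1cam lie on chromosome X with 4 between them, and both were higher in MSC-1 cells. Sema3c and Sema3e lie on chromosome 5 with 15 between them, and they were on opposite sides.

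The promoters of the opposite pair Sema3e and Sema3c are printed, with those of Plxnb3 and Nrcam. On the scale used here, Plxnb3 and Nrcam were the neural members with the largest differences on the MSC-1 side. Members on opposite sides can be read against each other, and the 4 promoters were chosen after the genes' values were seen. They are RefSeq sequences of GRCm38.p6, 300 bases each, from 250 bases before to 50 after the gene's start, printed in the direction of the gene. Capitals mark the letters ACAAAG or ACAATG, read on both strands, which are cores bound by SOX factors and share their opening ACAA.
Plxnb3, chrX:73756853-73757152, plus strand: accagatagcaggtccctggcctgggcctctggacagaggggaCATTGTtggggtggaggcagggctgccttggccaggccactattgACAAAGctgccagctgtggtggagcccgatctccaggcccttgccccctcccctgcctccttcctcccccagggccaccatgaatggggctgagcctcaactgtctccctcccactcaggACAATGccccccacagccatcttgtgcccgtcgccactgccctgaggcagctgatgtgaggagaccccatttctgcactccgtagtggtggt
Nrcam, chr12:44328635-44328934, plus strand: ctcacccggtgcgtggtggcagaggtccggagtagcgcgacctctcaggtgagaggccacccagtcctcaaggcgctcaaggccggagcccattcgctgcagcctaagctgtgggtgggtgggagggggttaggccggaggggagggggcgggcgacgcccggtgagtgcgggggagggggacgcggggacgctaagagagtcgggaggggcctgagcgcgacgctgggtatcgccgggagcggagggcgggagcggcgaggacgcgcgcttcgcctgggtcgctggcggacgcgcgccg
Sema3e, chr5:14025026-14025325, plus strand: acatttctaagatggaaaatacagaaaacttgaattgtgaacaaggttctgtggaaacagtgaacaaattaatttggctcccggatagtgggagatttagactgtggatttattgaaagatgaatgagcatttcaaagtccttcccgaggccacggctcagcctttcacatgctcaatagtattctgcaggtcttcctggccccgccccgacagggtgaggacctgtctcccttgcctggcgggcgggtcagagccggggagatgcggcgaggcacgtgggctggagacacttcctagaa
Sema3c, chr5:17574566-17574865, plus strand: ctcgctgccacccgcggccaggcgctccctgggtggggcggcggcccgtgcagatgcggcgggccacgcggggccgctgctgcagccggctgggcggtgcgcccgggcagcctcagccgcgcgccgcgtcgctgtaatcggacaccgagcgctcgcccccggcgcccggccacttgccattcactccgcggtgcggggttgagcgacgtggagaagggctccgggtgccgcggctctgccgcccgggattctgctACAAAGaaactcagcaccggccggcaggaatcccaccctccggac

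The Plxnb3 window holds 3 such matches and 4 CG dinucleotides, whereas the Sema3c window holds 1 match and 42. The windows of Nrcam, with 37 CG dinucleotides, and Sema3e, with 11, hold 0 matches. Of the 25 genes, 19 had a promoter in the table, and 5 of them held either motif in a window, where a gene may have more than 1. Over all 32851 windows the share with ACAAAG was 18.7%, with ACAATG 12.6% and with either 28.6%. The median count of CG dinucleotides was 35.0 for the 7 genes higher in primary cells and 18.5 for the 12 higher in MSC-1 cells, against 18.0 for 1704 genes of the table, taking each gene's richest window. With so few genes this is a description of the windows and says nothing about which factor binds there.

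Partners of these families that the title rule does not name were counted from lists. Of 98 such genes 18 were in the table, of which 7 were higher and 11 lower in primary cells, where 62.1% of all genes of the table were higher and 37.9% lower. Lower were 4 of 4 listed co-receptors and netrin receptors, 3 of 4 signal transducers, 1 of 2 integrin adaptors and 3 of 8 integrin ligands. They too come from the 4-fold table, so no p-value is given for them. Among receptors, Nrp2, the neuropilin that binds Sema3f, had 56.2, 24.6 and 29.5 in primary cells, against 245, 301 and 263 in MSC-1 cells (-2.48, SE 0.22). Unc5b, a netrin receptor, had 44.7, 50.7 and 34.0 in primary cells and 292, 290 and 288 in MSC-1 cells (-2.38, SE 0.15). Nrp2 thus lay on the side of most semaphorins, Sema3f among them, whereas no netrin was in the table to set beside Unc5b. Ngfr, the p75 neurotrophin receptor and also one of the Schwann cell markers above, differed by -3.1 (SE 0.26), and the reelin receptor gene Vldlr by -1.55 (SE 0.18).

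Downstream, Dpysl3, a collapsin response mediator that carries semaphorin signals to the cytoskeleton, was the transducer higher in primary cells, with 257, 153 and 138 in primary cells and 0.845, 4.93 and 4.36 in MSC-1 cells (3.32, SE 0.24). The small GTPase gene Rhod (-2.58, SE 0.22), Limk1, a kinase that steadies actin filaments (-2.13, SE 0.19), and Mical1, an enzyme that takes them apart (-1.93, SE 0.14), were higher in MSC-1 cells. Of the integrin adaptors, Tln1, the talin that joins integrins to actin, had 523, 570 and 655 in primary cells and 32.5, 16.9 and 19.1 in MSC-1 cells (3.96, SE 0.18). Lims1, the adaptor PINCH, had 305, 213 and 186 in primary cells and 1030, 1270 and 1097 in MSC-1 cells (-2.22, SE 0.18). These 2 adaptors of the same adhesion complex were on opposite sides.

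Of the 8 listed matrix ligands of integrins, 5 were higher in primary cells, a share close to that of the whole table, and nothing particular to the ligands is read from it. Tnc, tenascin C, had 477, 252 and 261 in primary cells, against 4.83, 5.53 and 5.20 in MSC-1 cells (3.97, SE 0.24). The basement membrane linker gene Nid1 differed by 2.95 (SE 0.22) and Spp1, osteopontin, by 2.9 (SE 0.38), while Thbs2 and Thbs1 differed by 2.62 and 1.76. Lama4, a laminin chain of vessels and nerves, had 104, 72.4 and 60.7 in primary cells and 422, 672 and 574 in MSC-1 cells (-2.59, SE 0.21). Lamb2 at -2.1 and Nid2 at -1.74 were also on the MSC-1 side. Among the primary arrays, every listed ligand except Nid2 was highest on array 1, on both sides of the comparison, as were the peritubular markers and the Schwann cell and crest markers, whose part in these differences was not tested.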

How the data were processed

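RNA of 3 samples per group was measured on Affymetrix arrays. Each labelling reaction took 10 ug of RNA, per the labels' protocols. The authors deposited a linear signal intensity per probe set for each array, and the values show equal trimmed means (2% left out at each end). The software GCOS appears in the submitters' processing notes, where its role is left unstated. The background correction and probe summary method are not given in the sources used here. A second deposited file from the authors holds a signed fold change, treated as a score, for the probe sets of the 4-fold table. How it was averaged and filtered is not given. Its sign equals that of the ratio of mean signals, primary over MSC-1 cells, for all 3198 probe sets (r = 0.969 on the log2 scale across probe sets, which are no replicates), so a positive fold is higher in primary cells.

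The intensity was put on the scale log2(signal + 16), with no further scaling, and all probe sets except Affymetrix controls were fitted with limma (lmFit, eBayes with trend) without covariates, with Benjamini-Hochberg adjustment at 0.05. The fit was tested on simulated data. Genes were named only from probe sets with 1 symbol, through RefSeq symbols of GRCm38.p6, and all 28 members matched. The rule for named genes took, per family, up to 3 listed members with the largest difference on each side, any member whose arrays overlap or whose probe sets lie on both sides (none did), and, per partner list, up to 3 called genes on each side. Since every member is accounted for, the other members are given too. Sema4f, Clstn1, Vldlr, Thbs1, Thbs2 and the marker genes fall outside that rule and were chosen after their values were seen. The members and lists were chosen with earlier results of these data known. The members' own difference chose them, so no p-value is given for a member. The planned counts for whole gene families over the array, and over unlisted probe sets of the members, were not run, since no table here names those probe sets. Replicate numbers do not pair the samples. R 4.3.3, limma 3.58.1, Python 3.11.15, numpy 2.4.6, pandas 2.3.3 and matplotlib 3.10.9 were used.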

Additional observations from a re-analysis of the deposited data

How the results depend on the processing

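The split of the 25 genes into 8 higher in primary cells and 17 lower, and of the neural genes into 5 and 14, was the same with quantile normalization, offsets of 1 and 64, the dimmest 40% of probe sets left out, each of the 6 arrays left out in turn, and another probe set or the median per gene. With the authors' deposited fold the split is the same by construction. The members were chosen on this difference, so an unchanged direction is no sign of stability. No member turned its direction or lost its limma call under those alternatives that have a fit. Sizes depended on the offset: 18 of 29 differences moved by over 1.5 times with an offset of 1 and 22 with an offset of 64. For Slit3 they were 4.37 and 1.14, and for Tcam1 7.62 and 3.73. With the median over its probe sets Nrcam was at -2.36, Sema3e at -2.16 and Sema3c at 2.84. Over all probe sets, leaving out 1 array gave 7270 to 9111 calls higher in primary cells and 7787 to 10276 lower. With the replicate block, 8186 were called higher in primary cells and 9016 lower, against 8676 and 9741 without it. Deviations of same-numbered arrays correlated at -0.126, -0.119 and 0.041, so the numbers are not taken as a pairing. The alternatives for whole families over the array, and for unlisted probe sets of the members, were not run. The number of arrays limits the precision.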
